A study of Oryza sativa with 36 samples.

Results

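The leaf of fertilised rice seedlings was compared between LYP9 and the varieties 9311 and PA64s, with 3 arrays each. The labels only name the 3 varieties; that LYP9 is the hybrid of PA64s as mother and 9311 as father is general knowledge about this rice. These 9 arrays are part of a series of 36, which also covers root and unfertilised plants, and all 57194 probe sets that are not controls were tested in them. Per the labels, all seedlings grew for 5 days in a nutrient soil mix and then in barrels of poor soil, with 15 seedlings of each variety per barrel. At an age of 14 days, 6 of the 12 barrels received 10 g urea and 10 g compound fertiliser. Their plants are the nutrient-sufficient group, also labelled heterotic, and the plants of the other barrels are the unfertilised group used below as a second set of 9 arrays. The labels give no further genotype and do not say whether the 3 arrays of a group came from separate plants or barrels. The p-values therefore measure only the spread between these samples.

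A hybrid carries 1 genome copy from each parent in every cell. If each copy keeps the activity it has in its own parent, the RNA of a gene in the hybrid lies at the mean of the parents' levels on a linear scale. On a log2 scale that same level lies above the mean of the parents' log2 levels, and by more the further the parents are apart. Levels close to the higher parent, close to the lower parent or outside both have all been described in hybrid plants.

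The arrays held leaf RNA in all 3 genotypes. The 5 light-harvesting and photosystem marker genes averaged 13.29 log2 units in LYP9, 13.37 in 9311 and 13.25 in PA64s, against 6.03 in fertilised root. Their summed intensities ran from 64195 to 65132 in LYP9, from 64914 to 68139 in 9311 and from 63319 to 63976 in PA64s. The 10 root markers averaged 5.97 in LYP9, 6.07 in 9311 and 5.95 in PA64s, against 10.16 in root, and their sums ran from 953 to 1355 in LYP9, from 948 to 1737 in 9311 and from 929.9 to 1170.0 in PA64s. The 69 cell division genes averaged 7.32 in LYP9, 7.29 in 9311 and 7.26 in PA64s. In bulk leaf, a larger share of a cell type and more RNA per cell cannot be told apart. Median intensities of the 9 arrays ran from 69.3 to 75.4. Pearson correlations over all probe sets ran from 0.9571 to 0.978 between LYP9 and 9311 arrays, from 0.964 to 0.98 between LYP9 and PA64s arrays and from 0.9366 to 0.9597 between 9311 and PA64s arrays. Within a genotype they ran from 0.9753 to 0.9894, so that the highest values between LYP9 and a parent reached those within genotypes.

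LYP9 differed from either parent in fewer probe sets than the parents differed from each other. A probe set was called at an adjusted p under 0.05 from limma over all 57194 probe sets. LYP9 was called different from 9311 in 835 probe sets (1.46% of those tested), 731 of them higher in LYP9 (1.28%) and 104 lower (0.182%). The lower calls numbered 53 without 9311 replicate 2, 55 without 9311 replicate 3, 66 without LYP9 replicate 1 and 60 on the 9 fertilised arrays alone. Against PA64s, LYP9 was called different in 769 probe sets (1.34%), 446 higher (0.78%) and 323 lower (0.565%), against 503 in all without PA64s replicate 2 and 485 in a fit on the 9 fertilised arrays alone. The lower calls numbered 154 without LYP9 replicate 1 and 176 without PA64s replicate 2, with 70.1% and 65% of the calls then higher in LYP9, against 58% with all arrays. The parents were called different in 2969 probe sets (5.19%), of which 1255 were higher in 9311 (2.19%) and 1714 higher in PA64s (3%). These 3 comparisons share arrays in pairs and are given side by side. The calls of LYP9 fell on 344 genes with a single symbol against 9311 and on 329 against PA64s. Across all probe sets the median log2 difference was 0.001 for LYP9 minus 9311, 0.031 for LYP9 minus PA64s and 0.035 for 9311 minus PA64s.

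Among the 2969 probe sets that separated the parents, LYP9 mostly lay between them. Its mean level was between those of the parents in 2887 (97.2%). The same parent arrays picked these probe sets and set the range, so the choice favours a place between them. Over all probe sets, the LYP9 mean lay above both parental means in 16860 and below both in 12834. LYP9 was called different from 9311 only in 523 probe sets (17.6%) and from PA64s only in 447 (15.1%). A missed call does not place LYP9 at the level of the other parent. Of the 523, the LYP9 arrays overlapped those of PA64s in 263 (50.3%), and LYP9 was nearer to PA64s on the linear scale in 396 (75.7%). Of the 447, they overlapped those of 9311 in 245 (54.8%), and LYP9 was nearer to 9311 in 394 (88.1%). It was called different from both in 293 (9.87%), and in all 293 it lay between them. In the other 1706 (57.5%) it was called different from neither, which leaves these undecided. Outside these probe sets, where the parents were not called different, LYP9 was called different from 9311 only in 18, from PA64s only in 28 and from both in 1.

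On log2 values, LYP9 was called different from the lower parent alone more often than from the higher parent alone. On this scale the mean of the parents' linear levels itself lies nearer to the higher parent. The split therefore does not by itself show that LYP9 resembled the higher parent. Where 9311 was higher, LYP9 was called different from PA64s only in 366 of 1255 probe sets (29.2%) and from 9311 only in 30 (2.39%). Where PA64s was higher, LYP9 was called different from 9311 only in 493 of 1714 (28.8%) and from PA64s only in 81 (4.73%). Counted by gene, with 1 probe set for each of the 1360 genes whose parents were called different, the split was similar. LYP9 was called different from PA64s only for 166 of the 582 genes higher in 9311 (28.5%) and from 9311 only for 207 of the 778 genes higher in PA64s (26.6%).

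**Figure D1:**
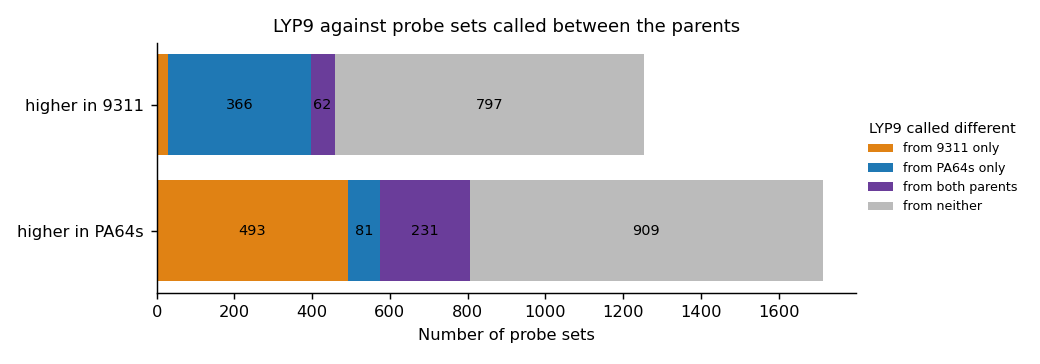
Number of probe sets called different between the parents, split by the parent with the higher level (rows) and by which parent LYP9 was called different from (colours). Where 9311 was higher, 366 probe sets separated LYP9 from PA64s only, and where PA64s was higher, 493 separated it from 9311 only, while the grey bars hold the 797 and 909 probe sets in which LYP9 was called different from neither.

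Against the mean of the parents' log2 levels, LYP9 was called different in 310 probe sets (0.542%). Of these, 303 were higher in LYP9 (0.53%) and 7 were lower (0.0122%). Against the log2 of the mean of the parents' linear levels, 2 probe sets were called (0.0035%), both lower in LYP9, and none was called higher (0%). None was called without any 1 of the LYP9 arrays, 1 without PA64s replicate 2, and 5 without PA64s replicate 3, of which 3 were probe sets of LOC4335304. At an unadjusted p under 0.05 in this test, which uses limma's variance, 807 probe sets were higher and 917 lower than the linear mid-parent. Together these are 1724 of 57194, a share under the 0.05 that the threshold passes where nothing deviates. The fit left out the replicate number, although same-numbered arrays deviated together. The share therefore does not show that nothing deviated. A fit of limma on the intensities themselves called 1 probe set, for LOC4330177, higher in LYP9, with an adjusted p of 1 in the fit on the log2 scale. The 303 higher calls had a median deviation of 1.29 from the log2 mid-parent and of 0.15 from the linear mid-parent, with quartiles of 0.01 and 0.29, and 40 of them deviated from the linear one at an unadjusted p under 0.05. The 7 lower calls had a median of -1.21 on the log2 scale and -1.41 on the linear scale, and a negative deviation cannot be smaller on the linear scale by construction.

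Where the parents were called different, 303 of the 310 log2 calls lay, 298 of them higher in LYP9. In 216 of these 303 LYP9 lay closer to PA64s on the log2 scale (0.378% of all probe sets), and in 87 closer to 9311 (0.152%). The side was again that of the higher parent, on which the mean of the linear levels also lies on the log2 scale. Of the 87 on the 9311 side, 84 were higher in 9311, and of the 216 on the PA64s side, 214 were higher in PA64s. Choosing the parental differences in the unfertilised arrays instead gave the same 216 and 87.

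**Figure D2:**
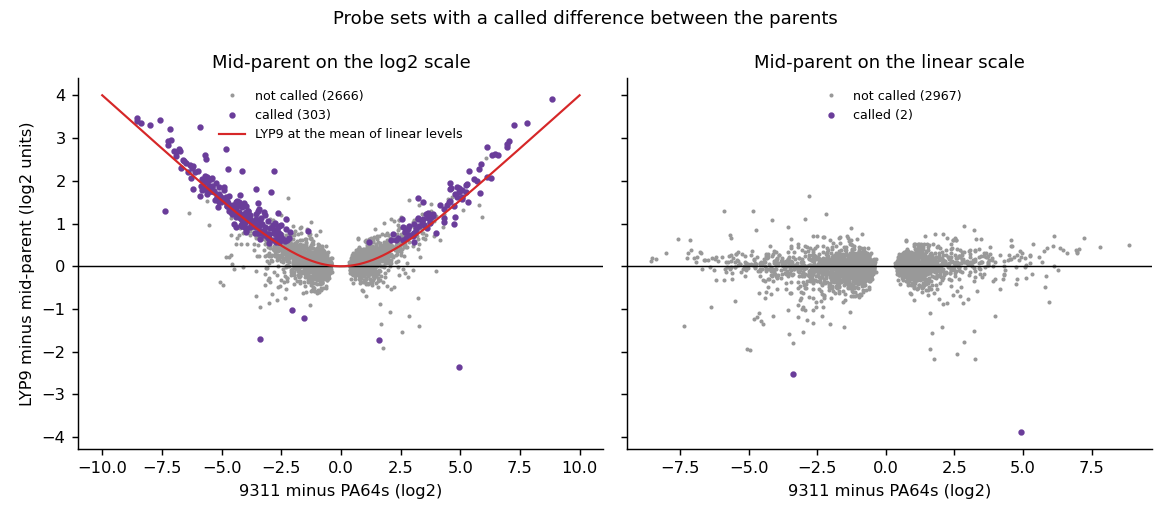
Deviation of LYP9 from the mid-parent on the log2 scale (left) and on the linear scale (right), both in log2 units, against 9311 minus PA64s, for the 2969 probe sets called different between the parents. The red curve is where LYP9 would lie at the mean of the parents' linear levels. On the left, the 298 calls higher in LYP9 lie near this curve, mostly above it, and the 5 lower calls lie below it. On the right 2 are called and the rest scatter around 0.

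The deviation from the log2 mid-parent grew with the distance between the parents and that from the linear mid-parent did not. In the 209 probe sets with parents more than 4 log2 units apart, LYP9 lay a median of 1.59 above the log2 mid-parent, 0.08 above the linear mid-parent and at -0.88 relative to the higher parent. In the 531 probe sets with parents 2 to 4 apart the medians were 0.56, 0 and -0.79, and in the 1306 probe sets 1 to 2 apart they were 0.12, -0.04 and -0.56. Of the 310 log2 calls, 170 lay in the first of these groups and 129 in the second. The same measures could be taken with the parents' distance read in the unfertilised arrays, which the LYP9 and parent levels of fertilised leaf do not enter. The medians were then 1.6, 0.07 and -0.88 for the 194 probe sets more than 4 apart and 0.53, -0.01 and -0.77 for the 525 that were 2 to 4 apart.

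**Figure D3:**
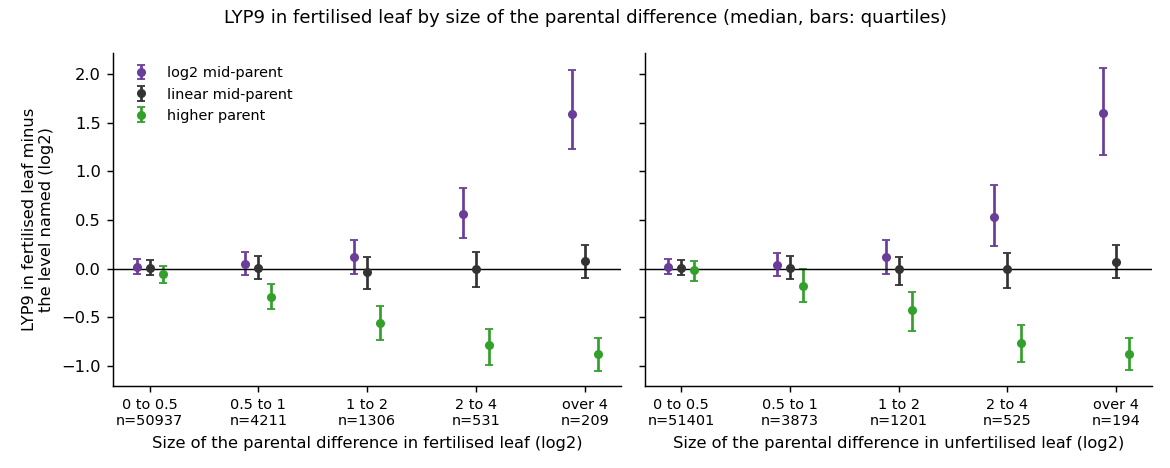
Median level of LYP9 in fertilised leaf minus the log2 mid-parent, the linear mid-parent and the higher parent, in log2 units, for probe sets grouped by the size of the parental difference in fertilised leaf (left) and in unfertilised leaf (right), with bars for the quartiles and n as the number of probe sets. The points for the linear mid-parent stay between -0.04 and 0.08 in all groups, while those for the log2 mid-parent reach 1.59 on the left and 1.6 on the right.

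The place of LYP9 between its parents was also measured for each probe set, with 0 for the PA64s level and 1 for the 9311 level. Over the 2969 probe sets the median was 0.49 on the log2 scale and 0.53 on the linear scale. On the log2 scale it was 0.65 where 9311 was higher and 0.38 where PA64s was higher, and on the linear scale 0.54 and 0.52. With parental differences called in the unfertilised arrays the linear medians were 0.55 and 0.52. The 3 LYP9 arrays differed in this measure. LYP9 replicate 1 had a median of 0.56 on the log2 scale, against 0.45 for replicate 2 and 0.44 for replicate 3, and on the linear scale the values were 0.58, 0.5 and 0.49. The gap lay in the probe sets higher in PA64s, with log2 medians of 0.47, 0.32 and 0.33, and not in those higher in 9311, with 0.65, 0.67 and 0.63. With parental differences called in the unfertilised arrays, the 3 log2 medians over all of them were 0.53, 0.4 and 0.51. Without LYP9 replicate 1, the calls of LYP9 against PA64s numbered 515 and those against 9311 numbered 774.

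**Figure D4:**
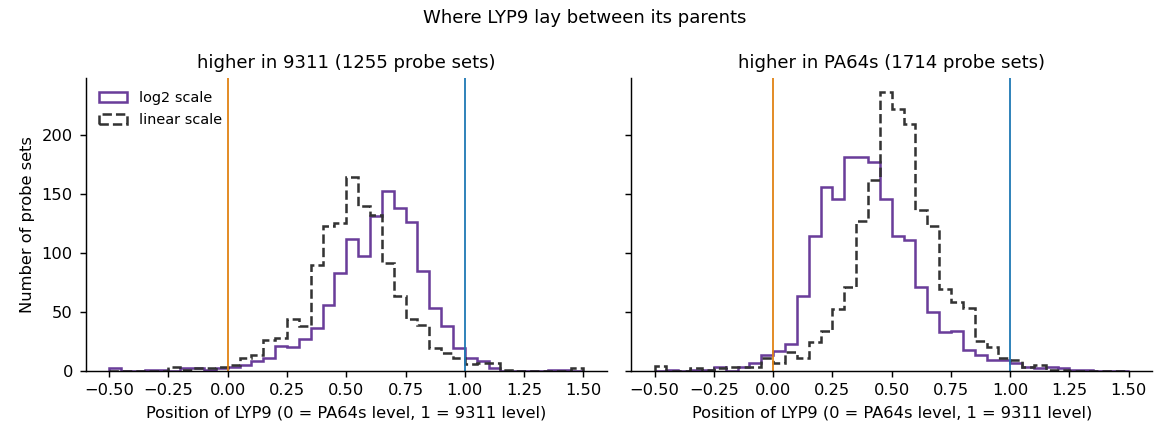
Number of probe sets by the position of LYP9 between PA64s (0, orange line) and 9311 (1, blue line) on the log2 scale (solid) and the linear scale (dashed), for probe sets higher in 9311 (left) and higher in PA64s (right). Positions beyond -0.5 and 1.5 are drawn at those limits. The log2 medians of 0.65 and 0.38 lie on the side of the higher parent and the linear medians of 0.54 and 0.52 lie near the middle.

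Most probe sets with the largest parental differences lay above a filter level in 1 parent and below it in the other. A level of 5.75 log2 units, which 60% of all probe sets reached as a mean over the 18 leaf arrays, was taken as the filter level. Of the 55 probe sets more than 4 log2 units higher in 9311, 49 were above this level in 9311 and below it in PA64s, and LYP9 was above it in 47. Of the 154 more than 4 units higher in PA64s, 140 were above it in PA64s and below it in 9311, and LYP9 was above it in 132. In the 49 and the 140 LYP9 minus the higher parent had medians of -0.73 and -0.9 log2 units, with quartiles of -0.97 and -0.59 and of -1.05 and -0.78. On the log2 scale LYP9 was nearer to the low parent in 1 and in 3. The mean of the parents' linear levels also lies nearer to the higher parent on that scale. These 2 counts therefore do not show that LYP9 resembled the higher parent. Whether such differences come from sequence differences under the probes or from transcript levels was not tested. Where a group lies under the filter level, its difference is printed in log2 units and not as a fold, because background signal was not analysed here.

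TPP7 (LOC4346885) is a trehalose 6-phosphate phosphatase known in rice for growth of germinating seeds under water. The probe set named by rule had high signal in 9311 and little in PA64s. Its intensity was 308, 260 and 370.0 in LYP9, against 459, 522 and 472 in 9311 and 16.3, 14 and 16.4 in PA64s. All LYP9 arrays lay between the parents' ranges. LYP9 was 4.32 ± 0.16 log2 units above PA64s (SE, adjusted p = 9.09e-12). Its difference from 9311 was -0.64 ± 0.16 (adjusted p = 0.049), a call lost in 10 of 16 alternatives, with adjusted p from 0.0204 to 0.268. It lay 1.84 ± 0.14 above the log2 mid-parent (adjusted p = 3.53e-07) and 0.31 above the linear one, with a 95% interval from -0.01 to 0.64. The second TPP7 probe set also placed LYP9 above PA64s (1.44, adjusted p = 3.18e-06), with parents less far apart. It averaged 7.07 in LYP9, 7.54 in 9311 and 5.62 in PA64s. On it LYP9 was not called against 9311 (-0.48, adjusted p = 0.127) or against the log2 mid-parent (0.48, adjusted p = 0.102).

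TAC1 (LOC4347655), a gene that sets tiller angle in rice, followed the same pattern at a lower level. Its intensity was 100.5, 137 and 118 in LYP9, 167, 171 and 238 in 9311 and 28.3, 31.7 and 33.7 in PA64s, with no overlap between the 3 genotypes. LYP9 lay 1.91 ± 0.15 log2 units above PA64s (adjusted p = 3.44e-07) and 1.61-fold under 9311 (log2 -0.69 ± 0.15, adjusted p = 0.0213), the second of these calls being lost in 4 of 16 alternatives, with adjusted p from 0.0147 to 0.152. The call against the log2 mid-parent (0.61 ± 0.13, adjusted p = 0.0414) was lost in 11 of 16 alternatives, with adjusted p from 0.00777 to 0.359, and the deviation from the linear mid-parent was 0.09, with an interval from -0.21 to 0.39.

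A probe set for rbcS (LOC4351966), the small subunit of the carbon-fixing enzyme Rubisco, stood at the level of 9311. It read 13278, 13271 and 12764 in LYP9, 13284, 13438 and 13345 in 9311 and 5806, 5900.3 and 6075 in PA64s. LYP9 was 2.21-fold above PA64s (log2 1.14 ± 0.12, adjusted p = 1.38e-05) and within 0.03 log2 units of 9311 (-0.03 ± 0.12). Its place on the linear scale was 0.97, and it lay 0.44 above the linear mid-parent, with an interval from 0.22 to 0.67 and an adjusted p of 1. The other 3 probe sets of rbcS did not show this. The brightest of them averaged 14.54 log2 units in LYP9, 14.5 in 9311 and 14.51 in PA64s. Rubisco small subunits form a family of near-identical genes, so the copy that a probe set reads is uncertain.

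Other genes were at the level of 9311 or between the parents and high against PA64s. PP2C62 (LOC4343331), of the type 2C protein phosphatases, read 185, 295 and 345 in LYP9, 255, 499 and 583 in 9311 and 1.81, 4.78 and 4.23 in PA64s. LYP9 and 9311 overlapped and both lay far above PA64s (log2 6.32 ± 0.94 for LYP9 minus PA64s, adjusted p = 0.000958), but a second probe set of the gene averaged 8.68 in LYP9, 8.48 in 9311 and 8.79 in PA64s. BURP16 (LOC4348595), a BURP-domain protein, read 163, 267 and 273 in LYP9, 378, 461 and 409 in 9311 and 28, 34.5 and 32.3 in PA64s, with every LYP9 array between the parents (log2 2.86 ± 0.37 against PA64s, adjusted p = 0.000209). Lsi6 (LOC4340558), a silicon transporter of the aquaporin family that unloads silicon from the xylem in leaves, read 2098, 1394 and 1054 in LYP9, 2972, 1939.6 and 1663 in 9311 and 481, 183 and 417 in PA64s. LYP9 was 4.38-fold above PA64s (adjusted p = 0.00774) and overlapped with 9311. The call was lost without LYP9 replicate 1 and without PA64s replicate 2, with adjusted p up to 0.0597. VIT2 (LOC4346978), a vacuolar iron transporter, was 3.34-fold above PA64s in LYP9 (adjusted p = 0.0187), with 1285, 1737 and 2732 in LYP9, 1772, 2138 and 2321 in 9311 and 426, 1021 and 378 in PA64s. This call was lost in 5 of 16 alternatives, with adjusted p from 0.00246 to 0.0983.

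On the PA64s side, 5 of the 6 genes picked for the largest log2 deviation are known to the annotation only by locus numbers. LOC4326058 read 2486, 2752 and 2278 in LYP9, 17.5, 14.3 and 15.6 in 9311 and 4702, 3776 and 3700.0 in PA64s. All LYP9 arrays lay under those of PA64s and far above those of 9311. LYP9 lay 7.31 ± 0.16 log2 units above 9311 (adjusted p = 1.54e-14), at -0.69 ± 0.16 relative to PA64s (adjusted p = 0.0365) and 0.3 above the linear mid-parent (interval -0.03 to 0.64). LOC4352358, LOC4326061, LOC4331894 and LOC4352494 were also far lower in 9311, with LYP9 at 10.51, 9.25, 10.29 and 8.47 log2 units, 9311 at 3.28, 1.57, 4.97 and 2.71 and PA64s at 10.87, 10.12, 10.61 and 9.3. Against PA64s, LYP9 was called different in LOC4352494 alone of these 4 (adjusted p = 0.0056), and its arrays overlapped those of PA64s in LOC4352358 and LOC4331894. Their deviations from the log2 mid-parent ran from 2.47 to 3.43 and those from the linear mid-parent from 0.12 to 0.65. All 3 probe sets of LOC4326061 were called against the log2 mid-parent, while the second probe set of LOC4331894 was not.

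SDH3-2 (LOC4343404), named as a subunit of succinate dehydrogenase, was the named gene among these 6. It read 380, 284 and 620 in LYP9, 43.4, 49.7 and 59.2 in 9311 and 545, 470 and 839 in PA64s. LYP9 overlapped with PA64s and lay 3.01 ± 0.29 log2 units above 9311 (adjusted p = 2.04e-06). The call against the log2 mid-parent (1.22 ± 0.25, adjusted p = 0.0298) was lost in 10 of 16 alternatives, with adjusted p from 0.000452 to 0.246.

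HXK4 (LOC4342654), a hexokinase, GL2-1 (LOC4344832), a homeodomain factor of the GLABRA2 family that acts in the epidermis, and CRK10 (LOC4343501), of the cysteine-rich receptor-like kinases, were also higher in LYP9 than in 9311. HXK4 read 138, 141 and 134 in LYP9, 46.8, 59.6 and 54.9 in 9311 and 192, 222 and 156 in PA64s. The 3 genotypes did not overlap, and LYP9 lay 1.36 ± 0.17 log2 units above 9311 (adjusted p = 8.63e-05) and at -0.45 ± 0.17 relative to PA64s (adjusted p = 0.408). GL2-1 was 3.93-fold above 9311 in LYP9 (adjusted p = 8.49e-06), at 604, 724 and 502 in LYP9, 118, 197 and 155 in 9311 and 1011, 687 and 846 in PA64s. CRK10 averaged 5.7 ± 0.28 log2 units in LYP9, 4.16 ± 0.12 in 9311 and 6.22 ± 0.13 in PA64s (SD, n = 3 each). HSP18.1 (LOC4332361), a small heat shock protein, averaged 5.95 ± 0.29 in LYP9, 4.68 ± 0.05 in 9311 and 6.84 ± 0.3 in PA64s. On this probe set LYP9 was called different from both parents. A brighter second probe set of HSP18.1 averaged 6.67 in LYP9, 6.46 in 9311 and 6.82 in PA64s and was called against neither. AO-4 (LOC4342932) was called on a dim probe set (4.65 in LYP9, 1.22 in 9311 and 5.82 in PA64s), and its other 3 probe sets were not called.

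**Figure D5:**
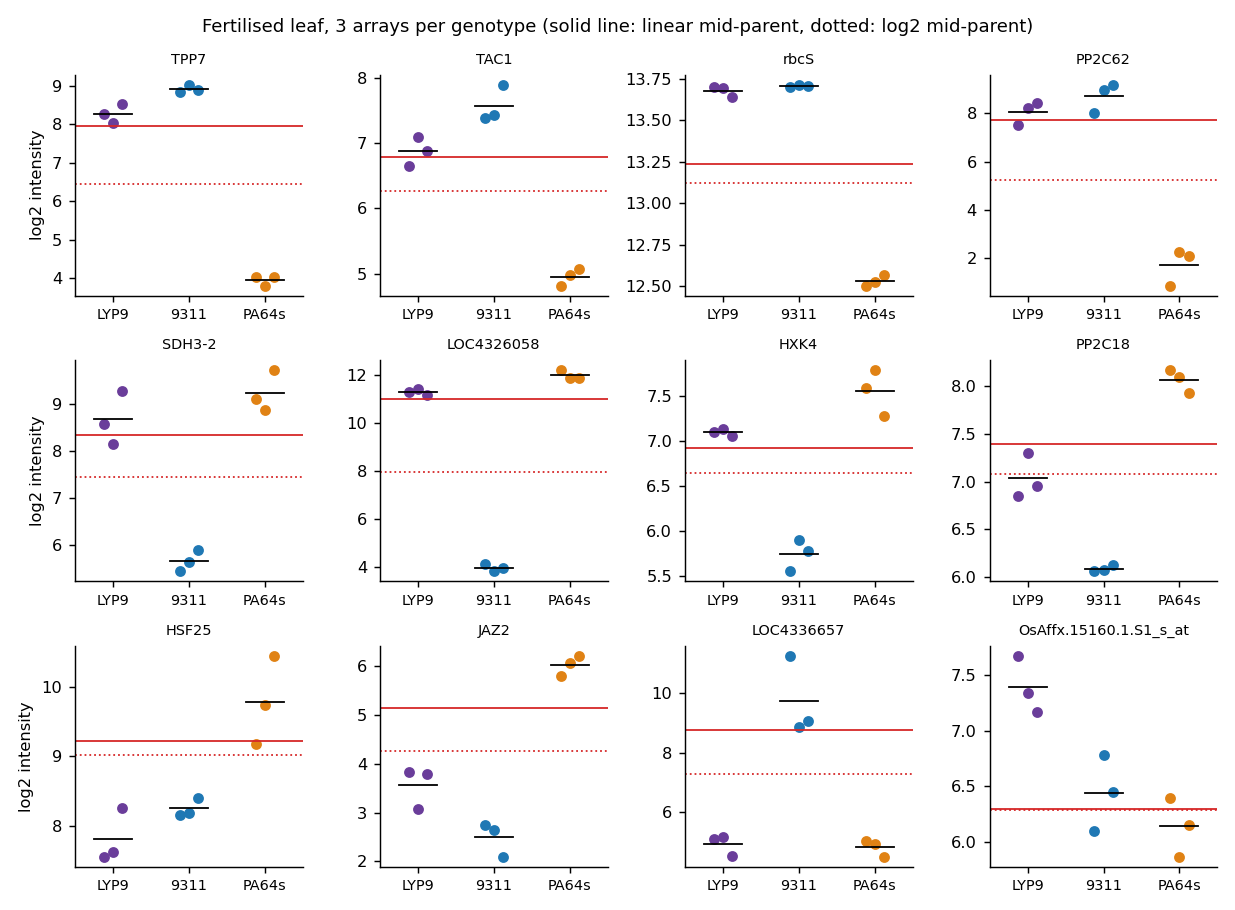
Log2 intensity in each fertilised leaf array of 12 probe sets, with points for the 3 arrays of LYP9, 9311 and PA64s, black bars for their means, a solid red line at the linear mid-parent and a dotted red line at the log2 mid-parent. LYP9 lies within 0.35 log2 units of the solid line for TPP7, TAC1, PP2C62, SDH3-2, LOC4326058, HXK4 and PP2C18, at the 9311 level for rbcS, further below the solid line for HSF25, JAZ2 and LOC4336657, and above both parents for the last probe set.

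On the log2 scale, few calls lay under the mid-parent, with 7 of 310 lower in LYP9. On the linear scale, the LYP9 mean was above the mid-parent in 1510 (50.9%) of the 2969 probe sets that separated the parents. LOC4336657 was the gene furthest under the linear mid-parent. It read 33.4, 35.6 and 22.4 in LYP9, 2476, 461 and 537 in 9311 and 32.4, 29.8 and 22.2 in PA64s, so that LYP9 and PA64s overlapped and one 9311 array stood far above the others. LYP9 minus the linear mid-parent was -3.88 ± 0.45 log2 units (adjusted p = 0.00868, 95% interval from -4.84 to -2.92). Without 9311 replicate 1 the deviation was -3.14 (adjusted p = 0.000812), and the call was lost without any 1 of the LYP9 arrays. The unfertilised arrays averaged 8.44 in LYP9, 12.08 in 9311 and 6.57 in PA64s. The other linear call, a probe set with no gene symbol, had the parents the other way round, with 76.2, 72.1 and 109 in LYP9, 74.2, 87.7 and 93.1 in 9311 and 554, 764 and 1619 in PA64s. LYP9 overlapped with 9311 and lay at -2.52 ± 0.33 relative to the linear mid-parent (adjusted p = 0.018), a call lost in 5 of 16 alternatives, with adjusted p from 0.00499 to 0.215.

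The gene listed as HSF25 (LOC4348646) carries names of both a heat stress factor and an acireductone dioxygenase, and the reference table marks it as a transcribed pseudogene, so no role is given. It read 188, 196 and 306 in LYP9, 286, 292 and 339 in 9311 and 581, 856 and 1404 in PA64s. LYP9 was 3.96-fold under PA64s (log2 -1.98 ± 0.29, adjusted p = 0.000801) and overlapped with 9311. Its difference from the log2 mid-parent was -1.21 ± 0.25 (adjusted p = 0.0329, lost in 7 of 16 alternatives, with adjusted p from 0.00669 to 0.255), and that from the linear one was -1.41 (interval -1.96 to -0.86, adjusted p = 0.394). In the unfertilised arrays the linear deviation was -1.8 (adjusted p = 0.0318). Its second probe set averaged 7.53 in LYP9, 7.48 in 9311 and 7.5 in PA64s.

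JAZ2 (LOC4342421), a repressor of jasmonate responses, read 14.2, 8.4 and 13.9 in LYP9, 6.75, 6.23 and 4.27 in 9311 and 56.1, 67.5 and 74.5 in PA64s. LYP9 minus PA64s was -2.47 ± 0.47 log2 units (adjusted p = 0.00883, and 0.0543 without LYP9 replicate 2), and the linear deviation was -1.59 (interval -2.55 to -0.63, adjusted p = 1). GH3.2 (LOC4326893), which joins auxin to amino acids, was 2.08-fold under PA64s in LYP9 (adjusted p = 0.00762), with 66.9, 51 and 55.3 in LYP9, 65.6, 65.7 and 59.2 in 9311 and 116, 139 and 105 in PA64s. BGLU18 (LOC4336391), a beta-glucosidase, was 1.96-fold under PA64s in LYP9 (adjusted p = 0.00668), at 118, 125 and 143 in LYP9, 93.5, 108 and 87.4 in 9311 and 209, 287 and 262 in PA64s. PP2C18 (LOC4329881) lay between parents that differed 3.93-fold. Its intensity was 115, 158 and 124 in LYP9, 66.8, 67.3 and 69.7 in 9311 and 287, 273 and 244 in PA64s, and LYP9 was called different from both, 1.93-fold above 9311 (adjusted p = 0.00632, and 0.0516 without LYP9 replicate 2) and 2.04-fold under PA64s (adjusted p = 0.00437). Without PA64s replicate 2 the adjusted p against PA64s was 0.0577 for GH3.2 and 0.0513 for BGLU18.

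AGO18 (LOC4343201), an Argonaute protein known in rice for defence against viruses, had a difference from PA64s of -0.92 ± 0.22 log2 units in LYP9 (adjusted p = 0.0474). The call was lost in 12 of 16 alternatives, with adjusted p from 0.0146 to 0.239. Its second probe set averaged 5.55 in LYP9, 5.53 in 9311 and 5.46 in PA64s and was not called. LOC4324081 and LOC4343597 were under 9311 in LYP9, with log2 differences of -2.6 and -2.08 and adjusted p of 0.000132 and 0.00657, the second reaching 0.0507 without LYP9 replicate 2. LOC4349395 had a difference of -1.73 from 9311 (adjusted p = 0.044), and this call was lost in 9 of 16 alternatives, with adjusted p from 0.00216 to 0.248. The second probe set of LOC4349395 was not called.

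Calls outside both parents were rare. The mean of LYP9 lay above both parental means in 16860 probe sets and below both in 12834, but LYP9 was called above both in 1 probe set (0.00175%) and below both in none (0%). By limma at an unadjusted p under 0.05 in both tests, LYP9 was above both in 139 probe sets and below both in 139. With the replicate number as a block in the fit, 3 were called above and 3 below. The 1 probe set has no gene symbol and read 204, 162 and 144 in LYP9, 68.6, 110 and 87.6 in 9311 and 84.3, 58.4 and 71.3 in PA64s. All LYP9 arrays lay above all parental arrays. LYP9 was 1.93-fold above 9311 (adjusted p = 0.0122) and 2.38-fold above PA64s (adjusted p = 0.00144). Its deviation from the linear mid-parent was 1.09 ± 0.17 (adjusted p = 0.0788), and the call above both was lost without LYP9 replicate 1, without 9311 replicate 1 and in a fit on the 9 fertilised arrays alone. In the unfertilised arrays it averaged 5.79 in LYP9, 5.45 in 9311 and 5.51 in PA64s. This probe set and the linear call without a symbol were described after their values were seen.

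The gene lists of leaf, nutrient and hormone functions held called members at about the share of all probe sets. Of 782 genes on 24 lists, with 1 probe set each, 17 were called different between LYP9 and a parent (2.17%, against 2.29% of all probe sets), 3 deviated from the log2 mid-parent (0.384%, against 0.542% of all probe sets) and none from the linear mid-parent. The parents were called different for 51 (6.52%, against 5.19% of all probe sets). Counted by gene with any called probe set, they differed for 1360 of 17905. In none of the lists did the median deviation of LYP9 from the linear mid-parent leave the range from -0.04 to 0.1, against 0.013 over all probe sets. List members were read on the brightest probe set of each gene. None was called between LYP9 and a parent among the 5 light-harvesting, 16 chlorophyll, 16 clock and heading date and 23 nitrogen genes. The 19 phosphate, 20 gibberellin, 69 cell division, 31 lignin, 22 ribosomal protein and 11 Calvin cycle genes held none either. Some members of these lists were called on another probe set, as given below.

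The 51 list genes that differed between the parents showed where LYP9 stood gene by gene. Of the 22 higher in 9311, LYP9 was called different from PA64s only for 6, from 9311 only for none, from both for 2 and from neither for 14, while over all genes higher in 9311 the share called from PA64s only was 28.5% and from 9311 only 2.23%. The 6 were BURP16, Lsi6, VIT2, TIFY2a (LOC4328300), a GATA-type member of the family of ZIM-domain proteins, SWEET6a (LOC4324213), of the SWEET sugar exporters, and MADS16 (LOC4342047), a factor of stamen identity. Of the 29 higher in PA64s, LYP9 was called different from 9311 only for 4, from PA64s only for 4, from both for 1 and from neither for 20. These 4 and 4 do not show the split seen over all genes higher in PA64s, of which 26.6% were called from 9311 only and 4.24% from PA64s only. The list genes were read on their brightest probe set, while the shares over all genes cover genes with any called probe set. They are therefore not counted alike. The first 4 were HXK4, LOGL7 (LOC4339472), an enzyme of the LOG family that activates cytokinins, WRKY51 (LOC4335388) and MADS1 (LOC4332059), a factor of floret development. The second 4 were JAZ2, HSF25, AGO18 and GH3.2. The median place of LYP9 on the linear scale was 0.55 for both sets, and on the log2 scale it was 0.71 where 9311 was higher and 0.47 where PA64s was higher.

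TIFY2a read 501, 321 and 336 in LYP9, 591, 534 and 505 in 9311 and 147, 148 and 134 in PA64s, and LYP9 was 2.65-fold above PA64s (adjusted p = 0.000152). LOGL7 read 1394, 991 and 1207 in LYP9, 698, 532 and 659 in 9311 and 1638, 1453 and 1518 in PA64s. LYP9 thus lay between the ranges of its parents, 1.89-fold above 9311 (adjusted p = 0.00704, and up to 0.0618 without LYP9 replicate 1 or 9311 replicate 2). The second probe set of LOGL7 averaged 6.02 in LYP9, 5.97 in 9311 and 6.08 in PA64s and was not called. MADS1 read 76.6, 90.8 and 119 in LYP9, 41.1, 46.4 and 53.1 in 9311 and 76.6, 104 and 97.3 in PA64s, and LYP9 overlapped with PA64s alone (log2 1.01 against 9311, adjusted p = 0.0124, lost in 3 of 16 alternatives, with adjusted p from 0.00181 to 0.0855). MADS16 was 1.58-fold above PA64s in LYP9 (adjusted p = 0.0173) and WRKY51 lay 0.83 ± 0.19 log2 units above 9311 (adjusted p = 0.0336), calls lost in 4 and 7 of 16 alternatives, with adjusted p up to 0.162 and 0.203. PP2C62, rbcS, PHO1;2 and NRAMP4 were among the list members called on a probe set that is not the brightest of the gene. PHO1;2 (LOC4331090), a phosphate exporter, lay 0.57 ± 0.13 above 9311 in LYP9 (adjusted p = 0.023). Its other 2 probe sets were at -0.04 and -0.02 against 9311 and were not called. NRAMP4 (LOC4324486), of the NRAMP metal transporters, lay 1.1 ± 0.24 above PA64s in LYP9 (adjusted p = 0.023). Its other 4 probe sets were at 1.25, 1.14, 0.87 and 0.06 against PA64s and were not called, with adjusted p from 0.0814 to 0.974. The PHO1;2 and NRAMP4 calls were lost in 5 and 6 of 16 alternatives, with adjusted p up to 0.156 and 0.115.

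Probe sets of one gene often differed in class. Of 99 genes with at least 2 probe sets called between the parents, 87 had them in the same direction. In 50 of the 99 all called probe sets put LYP9 in the same class, and in 3 some were called from 9311 only and others from PA64s only. Of the 35 genes named by rule, 13 had other probe sets, and for 2 of these, TPP7 and LOC4326061, another probe set was called in the same comparison.

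The same comparisons were made in the unfertilised leaf arrays. There LYP9 was called different from 9311 in 881 probe sets (1.54%), 685 higher (1.2%) and 196 lower (0.343%), and from PA64s in 859 (1.5%), 413 higher (0.722%) and 446 lower (0.78%). The parents differed in 2897 (5.07%), 1229 higher in 9311 (2.15%) and 1668 higher in PA64s (2.92%). LYP9 was called different from the log2 mid-parent in 362 (0.633%), 317 higher (0.554%) and 45 lower (0.0787%), and from the linear mid-parent in 8 (0.014%), all 8 lower in LYP9. Of the 310 log2 calls in fertilised leaf, 243 were also called in unfertilised leaf in the same direction, which is 78.4% of the fertilised and 67.1% of the unfertilised calls, and 304 of the 310 had the same sign. The difference between the log2 mid-parent deviations of both nutrient states was called in no probe set (0%). By limma, 1471 of 57194 had an unadjusted p under 0.05, a share that is itself under 0.05. As this fit also left out the replicate number, the share does not show that nothing differed. None of the 2 and 8 linear calls was shared. The 2 fertilised ones also lay under the linear mid-parent in unfertilised leaf. There LOC4336657 was at -2.67 (adjusted p = 0.064) and the probe set without a symbol at -1.37 (adjusted p = 0.228). The 8 included HSF25 and AGO18, and in fertilised leaf 6 of them lay under the linear mid-parent, and 3 of the 8 had an unadjusted p under 0.05.

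The precision of the linear test was set by 3 arrays per genotype. Over the 36459 expressed probe sets, those above the filter level in the mean of all leaf arrays or of a fertilised group, the median standard error of the linear deviation was 0.15 log2 units. Its 95% interval lay within 1 log2 unit of 0 in 96.1% of them, and in 90.9% of the 2561 that also differed between the parents.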

How the data were processed

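RNA abundance was measured on Affymetrix rice arrays. The authors deposited linear intensities for 57381 probe sets with a floor of 1, as the values show. RMA and affy are listed in the submitters' processing notes, with neither role nor version, and how the arrays were scaled is not given there. Each intensity was transformed to log2 with no further scaling. Excluding 187 control probe sets left 57194, and a single gene symbol was available for 22436 of them, several for 95 and none for 34663. All 17905 genes were found in the RefSeq gene table, 2452 with a name, often a synonym. No coordinates or sequences are printed, as no build was stated for the array.

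Group means over 18 leaf arrays (6 groups of 3) were fitted in R 4.3.3 with limma 3.58.1 (lmFit, eBayes with an intensity trend, 12 residual and 5 prior degrees of freedom), 2-sided, with Benjamini-Hochberg adjustment over all 57194 probe sets. The log2 mid-parent is the mean of the parents' log2 levels. The linear mid-parent is the log2 of the mean of their linear levels, each the antilog of its log2 mean, and its error came from the moderated variance by the delta method. The code was tested on simulated data. Errors of differences are standard errors. The number of arrays limits the precision.

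Same-numbered arrays deviated together: all 9 correlations of deviations from group means exceeded 0.1 (0.127 to 0.477), so the number was also fitted as a block. Other alternatives were a filter, 2 normalizations, no trend, the 9 fertilised arrays alone, log2(value + 16) and leaving out each array.

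By rule, the genes named were, per class of result, the 6 expressed and called genes with the largest difference that carry a name, filled to 6 with locus numbers where under 4 carry one, plus up to 2 called members of each list per direction by lowest p. List counts use the brightest probe set of each gene. Members and lists were chosen with earlier results of these data known.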

Additional observations from a re-analysis of the deposited data

How the results depend on the processing

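Leaving out 1 array at a time gave 686 to 850 calls for LYP9 minus 9311, 503 to 785 for LYP9 minus PA64s, 2288 to 3085 for 9311 minus PA64s, 224 to 306 against the log2 mid-parent and 0 to 5 against the linear mid-parent. It gave 0 to 3 calls above both parents and 0 to 1 below both. On the 9 fertilised arrays alone, LYP9 minus PA64s had 485 calls, the linear mid-parent 0, above both parents 0 and below both 1. With the replicate number as a block there were 3 calls above and 3 below both parents, 983 for LYP9 minus 9311, 1037 for LYP9 minus PA64s, 3959 for 9311 minus PA64s and 347 against the log2 mid-parent. Without an intensity trend 3 probe sets lay above both parents, and among the upper 60% of probe sets 2 did. Quantile normalization gave 2 below both and median centring gave 2. A fit on the linear intensities called 1 probe set against the linear mid-parent, the other way from the 2 of the log2 fit. The cause of these changes was not tested. The calls outside both parents and against the linear mid-parent are therefore too few to rest on. Of the total counts, those for LYP9 minus 9311, 9311 minus PA64s and the log2 mid-parent stayed within 1.5 times their main value in all alternatives run, but calls lower in LYP9 ranged from 53 to 120 against 9311 and from 154 to 351 against PA64s when 1 array was left out. None of the 45 tests of named genes changed direction. Of these, 14 lost their call on the 9 fertilised arrays alone and none under the replicate block. With 3 arrays per genotype, small deviations were not detectable, and dim probe sets have no measured background here.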

Other observations

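In unfertilised leaf, a probe set of LOC4331468 lay furthest under the linear mid-parent in LYP9 among the 6 called genes with a symbol. Its deviation was -3.4 log2 units (adjusted p = 0.0318 by the delta method with limma's variance). In fertilised leaf its deviation was 0.06 (adjusted p = 1). LOC4327172 had a deviation of -2.63 in unfertilised leaf (adjusted p = 0.0318) and of -0.28 in fertilised leaf (adjusted p = 1). On the log2 scale, the mid-parent deviation in fertilised minus unfertilised leaf was 3.31 for LOC4331468 and 1.91 for LOC4327172, and neither was called. The difference between the nutrient states was not tested on the linear scale.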
